A study of Mus musculus with 5 samples.

Results

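The genes described here are 32 genes of glycolysis and of the response to low oxygen, found by exact symbol among the 55291 gene symbols counted in mouse bone marrow RNA. They were chosen by name, with no cut on measured values but with earlier results of these data known. All 32 were present and passed the filter on low counts. They comprise 16 glycolytic enzymes, 3 transporters of glucose and lactate, 2 enzymes that set the level of an activator of phosphofructokinase, 10 genes induced by hypoxia, and Hif1a. The labels give the source of the sequenced RNA as bone marrow monocytes (written "mononcytes"). There were 2 libraries of genotype Tet2 mutant (replicates 2 and 3, titled HR) and 3 libraries of genotype wildtype (replicates 1, 2 and 3). Tet2 oxidises methylcytosine in DNA. The kind of Tet2 mutation, the strain, age and number of animals, the way the cells were isolated and what HR means were not given in the sources used here. No treatment is labelled, and nothing says that the libraries came from separate animals, so p-values measure the spread between these libraries, which may be technical.

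Glycolysis splits glucose into pyruvate in the cytosol, and lactate dehydrogenase can turn pyruvate into lactate, which leaves the cell through a monocarboxylate transporter. Several steps are served by paralogous enzymes encoded by separate genes, and myeloid cells, neutrophils above all, draw much of their energy from this route. When oxygen falls, the prolyl hydroxylases encoded by Egln1 and Egln3 no longer mark the Hif1a protein for destruction, and the factor raises transcription of most glycolytic genes together with targets outside glycolysis. Hif1a is regulated mainly as a protein, so its transcript level is not a measure of its activity.

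Library totals were 17459808 and 60508381 counts in Tet2-mutant replicates 2 and 3, and 53789308 to 72414875 counts in the wild type. Levels are given as CPM, the gene's count relative to the library's total, on the same scale in every library. Fold changes are log2 ratios of Tet2 mutant over wild type from edgeR's quasi-likelihood test with TMM scaling, which corrects totals for a few abundant genes, and a gene was called at a Benjamini-Hochberg adjusted p under 0.05 over all 17062 tested genes. The TMM factors were 0.723 and 0.896 in the mutant libraries and 1.14 to 1.17 in the wild type. Scaling by library size alone shifted the median over all genes by -0.51 on the log2 scale and lowered each of the 32 genes by 0.49 to 0.64, so each CPM ratio stands lower than its TMM fold change, and genes with small changes take their direction from the scaling. Of all calls, 70.5% were higher in the mutant with TMM and 29.1% with library size alone. Tet2 itself was counted at 3.84 and 13.9 CPM in mutant replicates 2 and 3 and at 13.9, 11.3 and 12.0 CPM in the wild type, and with the kind of mutation not given its level does not check the labels. Xist had 19.8 and 18.9 CPM in the mutant libraries, against 0.219, 0.207 and 36.8 CPM in the wild type. Y-linked transcripts summed to 28.4 and 3.24 CPM in the mutant libraries and to 199, 225 and 0.781 CPM in the wild type, so that Tet2-mutant replicate 2 held both. Only wild-type replicates 1 and 2 were low in Xist, so the Xist class and the genotype can be told apart only through wild-type replicate 3. Monocyte markers were present in every library, with 10 genes summing to 6874 and 4031 CPM in the mutant and to 6374 to 7233 CPM in the wild type. Chil3 supplied much of these sums, at 4043 and 2523 CPM in the mutant and 4246 to 4980 CPM in the wild type. In the wild type, 14 neutrophil markers summed to 57473 to 73446 CPM and 11 erythroid markers to 10202 to 24277 CPM, both above the monocyte sums. The purity of the labelled monocytes was not tested. The monocyte sums hide a split. With TMM scaling Csf1r, Fcgr1 and Ms4a4c were called higher and Itgam lower. By CPM 3 of the 10 stood above the wild-type range and 5 under it, against 14.1% and 46.8% of all tested genes.

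Among the 32 genes, Ankrd37, P4ha1, Slc2a1 and Pfkp rose in the Tet2 mutant and Pfkfb4 fell. In bulk RNA, fewer cells of a type and less RNA per cell cannot be told apart. The 4 rises make 12.5% of the set, near the 10.6% of all tested genes called higher, and the 1 fall stands beside 4.43% of all genes called lower. A further 4 genes on the higher side and 6 on the lower side had an unadjusted p under 0.05 without passing. With the called genes this made 8 higher and 7 lower, against 3503 and 3182 of the 17062 tested genes. With library size alone, 1 gene of the set was called higher, against 6.92% of all genes, and 11 were called lower, which is 34.4% of the set against 16.9% of all genes. Those 11 were Hk1, Hk3, Gpi1, Pkm, Slc2a3, Slc16a3, Pfkfb4, Bnip3l, Vegfa, Egln3 and Ero1l. Ankrd37 and Pfkfb4 were called under both scalings. By CPM, both mutant libraries lay above every wild-type library for 5 of the 32 genes (15.6%, against 14.1% of all tested genes) and below every one for 19 (59.4%, against 46.8%). With TMM-scaled values they lay above for 11 and below for 10, against 3899 and 5684 of the 17062 tested genes. Pfkl, Aldoa, Tpi1, Gapdh, Eno1 and Pfkfb3 lay above only with TMM scaling.

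**Figure D1:**
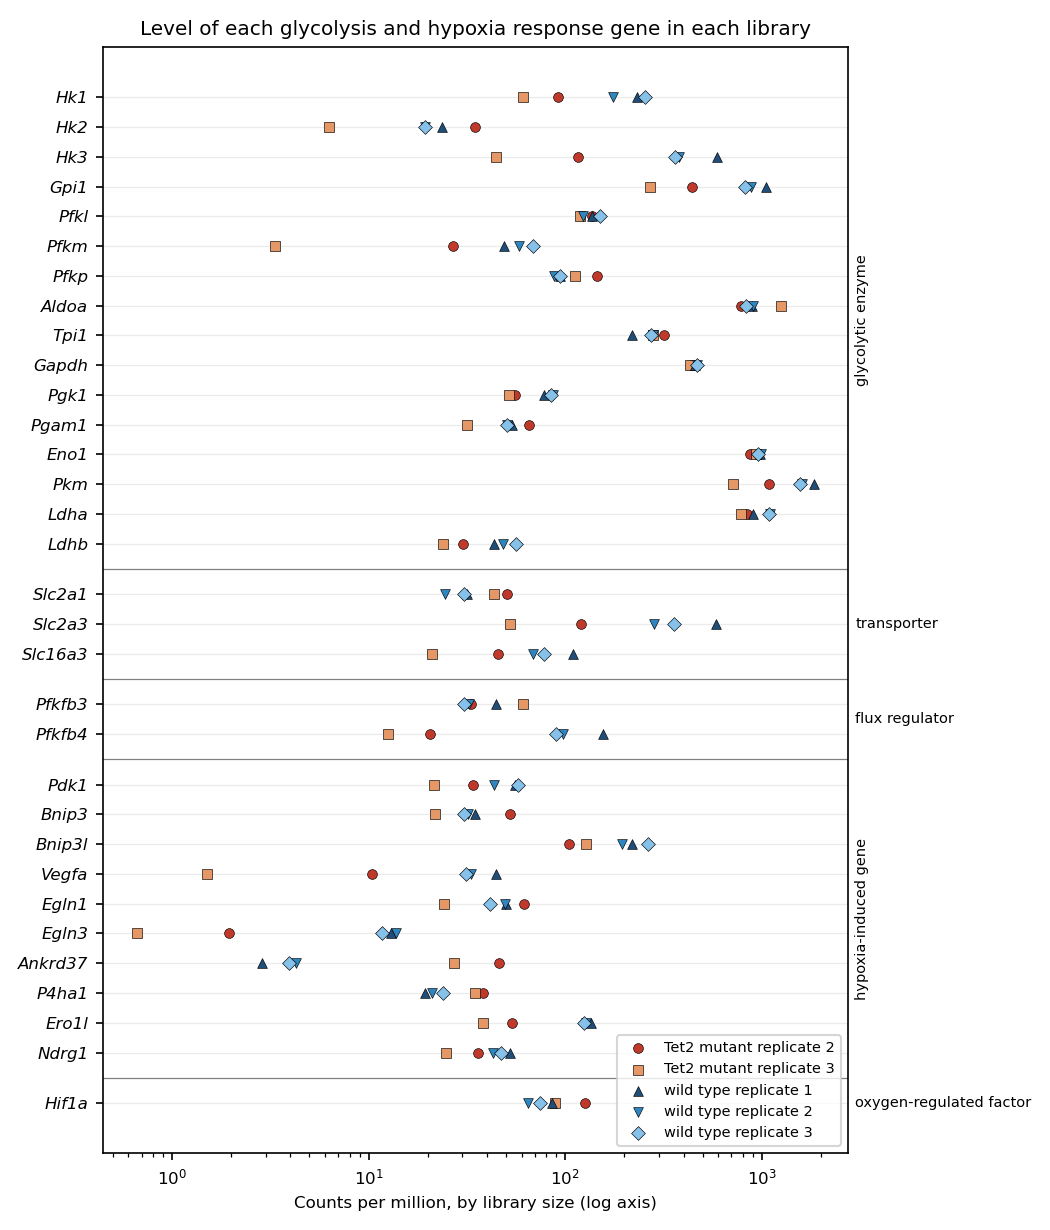
Level of each of the 32 genes in each library, as CPM by library size on a log axis, grouped by role. Tet2-mutant libraries are red circles and orange squares, wild-type libraries blue symbols. Ankrd37 lies at 46.2 and 27.0 CPM in the mutant and at 2.88 to 4.25 CPM in the wild type, while Pfkm, Vegfa and Hk2 show the widest gaps between the mutant libraries, at 8.08-fold, 6.89-fold and 5.52-fold.

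Ankrd37 encodes an ankyrin repeat protein and is a known target of HIF1. Its level was 46.2 and 27.0 CPM in mutant replicates 2 and 3, against 2.88, 4.25 and 3.94 CPM in the wild type. The groups were far apart, and the gene had the lowest level per kilobase of exon of the 32 genes in the wild type. The log2 fold change was 3.88 ± 0.47 (SE; adjusted p = 0.0043), and the gene was higher in 2 of 2 mutant libraries. It passed in 13 of 14 alternative fits and missed in the fit with the Xist class as a covariate (log2 fold change 3.76, adjusted p = 0.156). Exons of Ankrd37 (chromosome 8, 45996902 to 46005707, minus strand of GRCm38) share 57 bases with Ufsp2 and 349 with Lrp2bp, both on the other strand, and the strand setting of the counting is not given. Ufsp2 had 46.4 and 93.2 CPM in the mutant libraries and 47.7 to 53.6 CPM in the wild type, with the mutant libraries in the opposite order to Ankrd37, and Lrp2bp was at 0 in both mutant libraries.

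P4ha1 (chromosome 10, 59323296 to 59373304, plus strand) encodes the catalytic subunit of collagen prolyl hydroxylase and is induced by hypoxia. Mutant replicates 2 and 3 held 38.0 and 34.7 CPM, against 19.4, 21.004 and 23.9 CPM in the wild type (log2 fold change 1.30 ± 0.33, adjusted p = 0.0423). Slc2a1 (chromosome 4, 119108711 to 119137983, plus strand), the basal glucose transporter of most cells, stood at 50.3 and 43.3 CPM in the mutant and at 31.8, 24.3 and 30.7 CPM in the wild type (1.23 ± 0.32, adjusted p = 0.0443). The libraries of both genes did not overlap between genotypes. Pfkp (chromosome 13, 6579768 to 6648777, minus strand), the platelet form of phosphofructokinase, was at 144 and 112 CPM in the mutant and at 94.1, 87.4 and 94.3 CPM in the wild type (1.03 ± 0.27, adjusted p = 0.0466). These 3 calls were lost with library size alone, which gave P4ha1 0.76 (adjusted p = 0.103), Slc2a1 0.69 (adjusted p = 0.113) and Pfkp 0.48 (adjusted p = 0.135). The same calls were absent with upper-quartile scaling, the replicate block and the Xist covariate. In the replicate block, wild-type replicate 1 has no mutant library of its number, and 1 residual degree of freedom is left. The call of Pfkp was also absent with limma voom and a minimum of 1 CPM. P4ha1 and Slc2a1 thus each passed in 7 of 14 alternatives and Pfkp in 5. All 3 calls were also lost without any 1 of the wild-type libraries. There adjusted p ranged over 0.0984 to 0.121 for P4ha1, 0.0926 to 0.12 for Slc2a1 and 0.0773 to 0.0833 for Pfkp. Pfkp shares 748 exonic bases with Pitrm1 on the opposite strand, which was at 45.7 and 15.0 CPM in the mutant and at 75.2 to 108 CPM in the wild type.

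Pfkfb4 (chromosome 9, 108991778 to 109032228, plus strand) encodes one of the bifunctional enzymes that make and break down the sugar bisphosphate activating phosphofructokinase. It had 20.6 and 12.5 CPM in mutant replicates 2 and 3, against 156, 97.3 and 89.6 CPM in the wild type. The highest mutant library lay well under the lowest wild-type library. The log2 fold change was -2.22 ± 0.43 (adjusted p = 0.0224). The call was absent without wild-type replicate 1 (-1.84, adjusted p = 0.071) and with the Xist class as a covariate (-1.89, adjusted p = 0.219), and held in the other 12 alternatives.

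The promoters of these 5 called genes are shown because HIF binds sites with the short core ACGTG or GCGTG. The windows are RefSeq sequences of GRCm38.p6, from 250 bases before to 50 bases after the annotated start, written in the direction of transcription. They lie at chr8:45999801-46000100 (minus strand) for Ankrd37, chr10:59323046-59323345 (plus) for P4ha1, chr4:119108495-119108794 (plus) for Slc2a1, chr13:6648722-6649021 (minus) for Pfkp and chr9:108991652-108991951 (plus) for Pfkfb4. The RefSeq start of Ankrd37 lies inside the gene span given above. Capitals mark each ACGTG or GCGTG, or its complement CACGT or CACGC on the other strand.
Ankrd37: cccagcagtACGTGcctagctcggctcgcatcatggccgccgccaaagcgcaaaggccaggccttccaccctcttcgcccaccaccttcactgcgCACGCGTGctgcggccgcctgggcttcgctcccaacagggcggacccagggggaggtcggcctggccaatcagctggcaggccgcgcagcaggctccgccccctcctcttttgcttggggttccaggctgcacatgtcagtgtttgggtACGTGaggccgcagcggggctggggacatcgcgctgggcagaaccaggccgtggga
P4ha1: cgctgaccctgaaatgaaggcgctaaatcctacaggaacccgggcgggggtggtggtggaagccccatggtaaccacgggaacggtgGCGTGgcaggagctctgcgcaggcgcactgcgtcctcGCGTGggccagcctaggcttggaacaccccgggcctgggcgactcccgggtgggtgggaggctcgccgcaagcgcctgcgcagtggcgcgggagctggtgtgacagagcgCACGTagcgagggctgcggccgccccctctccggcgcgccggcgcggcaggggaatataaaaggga
Slc2a1: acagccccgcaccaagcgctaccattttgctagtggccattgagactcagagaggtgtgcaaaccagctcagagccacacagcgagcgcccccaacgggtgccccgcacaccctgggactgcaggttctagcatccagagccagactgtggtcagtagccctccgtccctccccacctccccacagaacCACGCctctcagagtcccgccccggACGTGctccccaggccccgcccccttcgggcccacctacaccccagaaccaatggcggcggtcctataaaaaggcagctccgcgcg
Pfkp: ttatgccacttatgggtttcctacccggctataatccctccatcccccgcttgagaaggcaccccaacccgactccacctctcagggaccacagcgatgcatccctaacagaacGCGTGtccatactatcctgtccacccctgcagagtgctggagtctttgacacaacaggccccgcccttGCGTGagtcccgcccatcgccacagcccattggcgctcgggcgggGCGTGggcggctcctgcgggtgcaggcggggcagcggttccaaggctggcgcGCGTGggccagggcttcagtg
Pfkfb4: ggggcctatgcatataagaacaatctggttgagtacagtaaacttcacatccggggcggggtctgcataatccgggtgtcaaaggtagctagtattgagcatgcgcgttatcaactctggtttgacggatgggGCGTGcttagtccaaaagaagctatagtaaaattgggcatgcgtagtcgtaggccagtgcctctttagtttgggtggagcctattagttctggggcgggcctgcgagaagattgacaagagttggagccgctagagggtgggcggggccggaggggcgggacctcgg
The Ankrd37 window held 4 such cores, with an ACGTG starting 6 bases before the start of the gene and 2 overlapping matches that run together. The P4ha1 window held 3 cores, Slc2a1 held 2, Pfkp held 4 and Pfkfb4, the gene that fell, held 1. Windows were found for 28 of the 32 genes, and 26 of the 28 had the core in at least 1 window. Of the 11574 tested genes with a window, 64.5% had it, and of all 27025 genes with a window, 46.7%. Genes with several annotated starts had more windows, and counted by window the core was in 80.5% for the set and 58.7% for tested genes. Gpi1 and Tpi1 had no core in their window. The letters CACGTG would be matched on both strands and are also the E-box that MYC and USF factors bind. A match describes letters only.

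The glycolytic enzymes did not move as a block. Of the 16, only Pfkp was called with TMM scaling, 9 had a log2 fold change above 0 and 7 below, and the median was 0.30, against -0.07 for all tested genes. With library size alone the median of the enzymes was -0.23, against -0.58 for all genes, and 4 were called lower (Hk1, Hk3, Gpi1 and Pkm). These 4 make 25% of the enzymes, against 16.9% of all genes called lower. Gapdh, the dehydrogenase of the middle of the pathway, was even across libraries by CPM. It stood at 434 and 433 CPM in the mutant and at 455, 468 and 470.1 CPM in the wild type. Its log2 fold change was 0.43 (adjusted p = 0.2) with TMM scaling and -0.10 with library size alone. Eno1, the enolase, was similarly even at 868 and 932 CPM in the mutant and 984, 991 and 961 CPM in the wild type, with fold changes of 0.40 with TMM and -0.12 with library size alone.

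Hexokinases add the first phosphate to glucose, and Hk3 is the form typical of myeloid cells. Hk3 had 117 and 44.2 CPM in mutant replicates 2 and 3, against 591, 377 and 362 CPM in the wild type (log2 fold change -1.86 ± 0.53, adjusted p = 0.0533). Both mutant libraries lay below every wild-type library, and the gene passed in 8 of 14 alternatives. Hk1, the housekeeping form, stood at 91.6 and 61.1 CPM in the mutant and at 233, 174 and 254 CPM in the wild type (-0.97 ± 0.34, adjusted p = 0.0875). Hk2, the inducible form, split the mutant libraries, with 34.9 and 6.31 CPM in replicates 2 and 3 around 23.7, 19.3 and 19.3 CPM in the wild type. The isomerase gene Gpi1 stood at 442 and 271 CPM in the mutant and at 1056, 882 and 823 CPM in the wild type (-0.80 ± 0.35, adjusted p = 0.132).

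Phosphofructokinase commits the sugar to glycolysis. Pfkl, the liver form, overlapped between genotypes by CPM, at 137 and 119 CPM in the mutant and 138, 123 and 151 CPM in the wild type. Pfkm, the muscle form, had 27.0 and 3.34 CPM in mutant replicates 2 and 3, against 48.8, 58.5 and 68.9 CPM in the wild type. Both mutant libraries were low, but they differed 8.08-fold from each other, and the fold change was -1.32 ± 0.82 (adjusted p = 0.257). It was called lower in 3 of 14 alternatives, among them the fit without mutant replicate 2. Exons of Pfkm share 18 bases with Senp1 on the other strand, and Senp1 had 14.3 and 26.9 CPM in the mutant libraries, against 54.5 to 61.8 CPM in the wild type.

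In the lower steps no gene was called with TMM scaling. Aldoa, the aldolase, stood at 785 and 1246 CPM in the mutant and at 889.9, 904 and 827 CPM in the wild type. By CPM the mutant libraries lay on both sides, and with TMM-scaled values both lay above every wild-type library. The log2 fold change of Aldoa was 0.71 ± 0.24 (adjusted p = 0.0806). Tpi1, which interconverts the triose phosphates, was at 319 and 280.2 CPM in the mutant and at 218, 281 and 273 CPM in the wild type (0.76 ± 0.26, adjusted p = 0.0843). Pgk1, which makes the first ATP of the pathway, was at 55.5 and 51.9 CPM in the mutant and at 77.9, 87.0 and 84.4 CPM in the wild type. By CPM its groups did not overlap, yet the TMM fold change was -0.10 (adjusted p = 0.801). Pgam1, the mutase, had 65.6 and 31.8 CPM in mutant replicates 2 and 3, around 50.4 to 53.8 CPM in the wild type.

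Pkm, the pyruvate kinase, was the most abundant of the 32 genes per kilobase of exon in the wild type, with Ldha next. Pkm stood at 1090.2 and 712 CPM in the mutant and at 1842, 1598 and 1574 CPM in the wild type, with no overlap by CPM (log2 fold change -0.33 ± 0.33, adjusted p = 0.468). It was called lower with library size alone (-0.89). In the mutant Aldoa came first per kilobase, at a mean of 274 CPM per kilobase, followed by Ldha at 246 and Pkm at 180.2, while in the wild type the means were 236, 312 and 334. Ldha, which makes lactate, was at 844 and 788 CPM in the mutant and at 905, 1101 and 1093 CPM in the wild type. Its fold change was 0.19 with TMM (adjusted p = 0.596) and -0.34 with library size alone. Ldhb, which favours the reverse reaction, was at 30.2 and 23.9 CPM in the mutant and at 43.5, 48.0 and 56.0 CPM in the wild type (-0.32, adjusted p = 0.492). Many enzyme genes have processed pseudogenes in the mouse. The 24 retrocopy symbols found for 10 of the genes each held at most 2.59% of the counts of their parent in any library, and reads mapping to both may have been dropped in the counting.

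**Figure D2:**
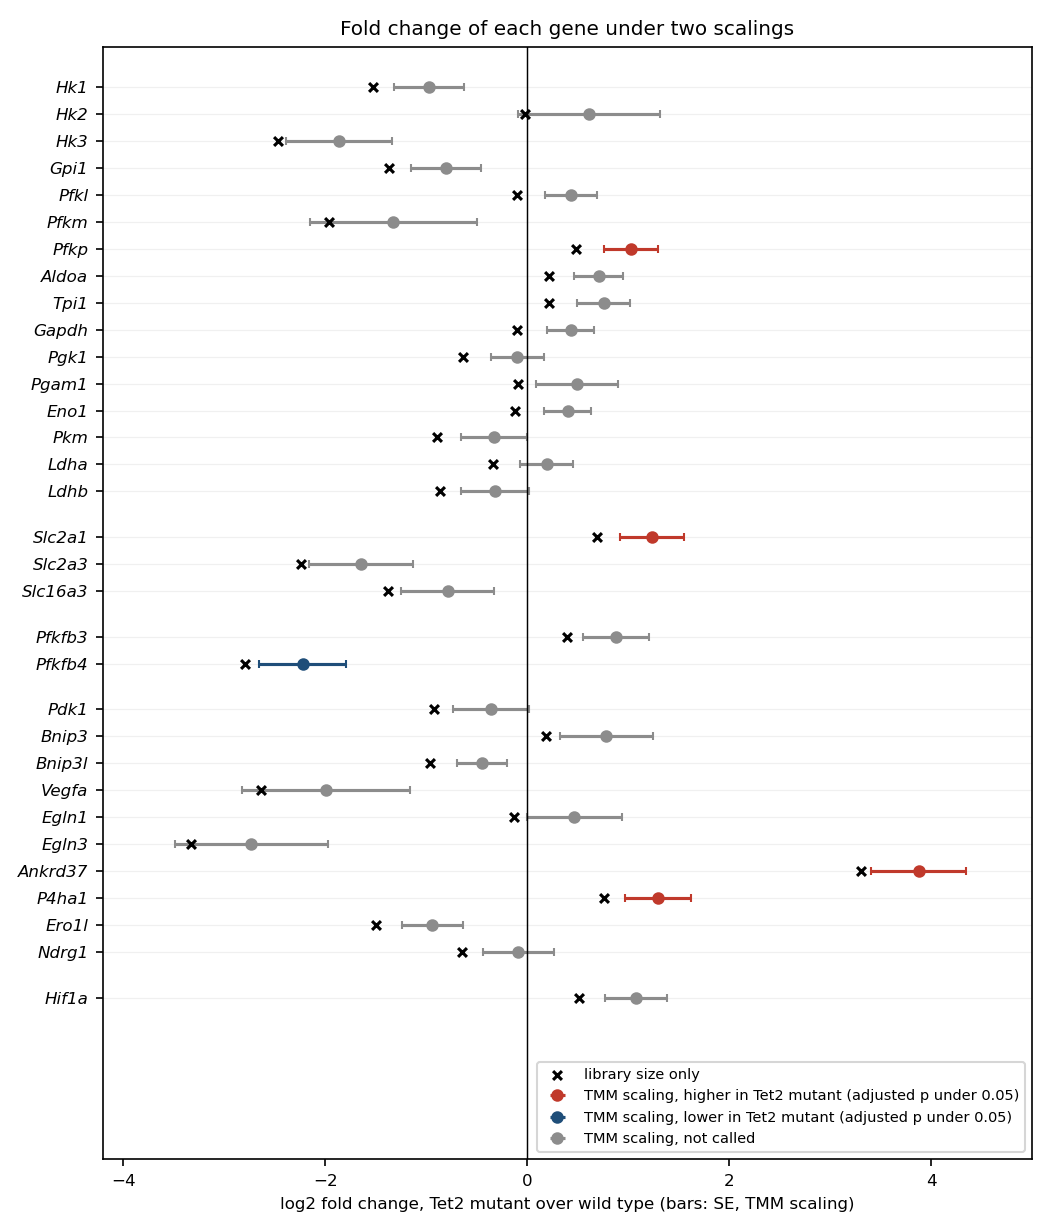
Log2 fold change of each gene, Tet2 mutant over wild type, with its SE as a bar for TMM scaling (circles, coloured where the adjusted p was under 0.05) and as crosses for library size alone. Every cross lies left of its circle, and Ankrd37 and Pfkfb4 are called under both scalings.

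The transporters differed in direction. Slc2a3, the high-affinity glucose transporter of neutrophils and neurons, stood at 121 and 52.3 CPM in the mutant, against 582, 282 and 357 CPM in the wild type. The mutant libraries were lowest, and the wild-type libraries themselves differed 2.06-fold, the widest spread within the wild type of the 32 genes. The log2 fold change was -1.64 ± 0.52 (adjusted p = 0.0675), beside the call of Slc2a1 as higher. Slc16a3, which exports lactate, was at 45.2 and 20.9 CPM in the mutant and at 110.03, 68.9 and 77.6 CPM in the wild type (-0.79 ± 0.46, adjusted p = 0.229). Of the regulators, Pfkfb3, the inducible kinase form, had 33.2 and 61.0 CPM in mutant replicates 2 and 3 and 44.2, 32.4 and 30.7 CPM in the wild type. By CPM mutant replicate 2 lay among the wild-type libraries and replicate 3 above them, while with TMM-scaled values both lay above. The log2 fold change of Pfkfb3 was 0.88 ± 0.33 (adjusted p = 0.0971).

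Of the 10 hypoxia-induced genes, Ankrd37 and P4ha1 were called higher with TMM scaling and none lower, and the median log2 fold change was -0.22, with a range of -2.73 to 3.88. With library size alone 4 were called lower (Bnip3l, Vegfa, Egln3 and Ero1l), 1 was called higher, and the median was -0.78. Of all tested genes, 16.9% were called lower and 6.92% higher with library size alone, with a median of -0.58. With TMM scaling the all-gene shares were 4.43% and 10.6%, and the median was -0.07. Egln3, an oxygen-sensing hydroxylase that HIF itself induces, had 1.95 and 0.661 CPM in mutant replicates 2 and 3, resting on 34 and 40 counts. In the wild type it had 13.003, 13.8 and 11.7 CPM. The groups lay far apart, and the fold change was -2.73 ± 0.75 (adjusted p = 0.0512), with a call in 8 of 14 alternatives. Vegfa, the vascular growth factor, had 10.4 and 1.504 CPM in the mutant, against 44.6, 33.0 and 31.2 CPM in the wild type. Both mutant libraries were low and differed 6.89-fold from each other (-1.99 ± 0.83, adjusted p = 0.122).

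Ero1l, the oxidase that drives disulfide formation in the endoplasmic reticulum, had 53.6 and 38.0 CPM in the mutant and 135, 128 and 124 CPM in the wild type. Its wild-type libraries were close together and its groups did not overlap (log2 fold change -0.94 ± 0.31, adjusted p = 0.073). Bnip3l, a mitophagy receptor that clears mitochondria from maturing red cells, had 104 and 128 CPM in the mutant and 219, 195 and 263 CPM in the wild type (-0.45 ± 0.25, adjusted p = 0.21). Its relative Bnip3 had 52.5 and 21.8 CPM in mutant replicates 2 and 3, on either side of 34.9, 31.98 and 30.5 CPM in the wild type. Egln1, the main hydroxylase acting on Hif1a, split in the same way, with 61.9 and 24.1 CPM in the mutant around 49.9, 49.3 and 41.6 CPM in the wild type. Pdk1, which shuts off pyruvate dehydrogenase, had 34.0 and 21.5 CPM in the mutant and 55.8, 43.5 and 57.8 CPM in the wild type (-0.36, adjusted p = 0.497). Ndrg1, a stress-response gene, had 36.2 and 24.6 CPM in the mutant and 52.4, 43.0 and 47.1 CPM in the wild type (-0.09, adjusted p = 0.869). For Pdk1 and Ndrg1 the groups did not overlap by CPM, and neither passed under either scaling.

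Hif1a itself had 127 and 88.2 CPM in mutant replicates 2 and 3, against 85.5, 64.6 and 74.8 CPM in the wild type. Both mutant libraries were above the wild type, though replicate 3 exceeded wild-type replicate 1 only narrowly. The log2 fold change was 1.08 ± 0.31 (adjusted p = 0.0554), and 4 of 14 alternatives called it higher.

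Where a step has several paralogues, their shares of the family's counts do not depend on scaling. The PFKFB pair differed most. Pfkfb3 took 61.7% and 82.9% of the counts of Pfkfb3 and Pfkfb4 in Tet2-mutant replicates 2 and 3, against 22.1%, 25.0% and 25.5% in the wild type, so that the more abundant gene of the pair was Pfkfb3 in the mutant and Pfkfb4 in the wild type. Slc2a1 took 29.4% and 45.3% of the counts of Slc2a1 and Slc2a3 in the mutant and 5.18%, 7.93% and 7.94% in the wild type. Egln3 took 3.05% and 2.66% of the counts of Egln1 and Egln3 in the mutant and 20.7%, 21.8% and 21.9% in the wild type. These shares were tight within each genotype for the hydroxylases and wider between the mutant libraries for the other pairs.

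Among the hexokinases, Hk3 took 48.0% and 39.6% of counts in the mutant libraries and 69.7%, 66.1% and 57.0% in the wild type. Hk2 took 14.3% and 5.66% in the mutant and 2.80% to 3.38% in the wild type, while the share of Hk1 overlapped. Among the phosphofructokinases, Pfkp took 46.9% and 47.9% in the mutant and 33.5%, 32.5% and 30.0% in the wild type. Pfkm took 8.76% and 1.42% in the mutant and 17.4% to 21.9% in the wild type, and Pfkl overlapped. Ldha made up 96.5% and 97.1% of lactate dehydrogenase counts in the mutant and 95.1% to 95.8% in the wild type, the smallest shift that did not overlap. Bnip3 took 33.5% and 14.6% of the counts of Bnip3 and Bnip3l in the mutant and 10.4% to 14.1% in the wild type, where mutant replicate 3 only just exceeded the wild type. Of 11 shares compared by an exact two-sided permutation test over libraries, 9 did not overlap between genotypes and had p = 0.2. That is the smallest value that 2 against 3 libraries can give, so none can pass. Separation was also common for single genes. By CPM, both mutant libraries lay above every wild-type library for 14.1% of all tested genes and below every one for 46.8%. How often shares in other gene families separate was not tested.

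**Figure D3:**
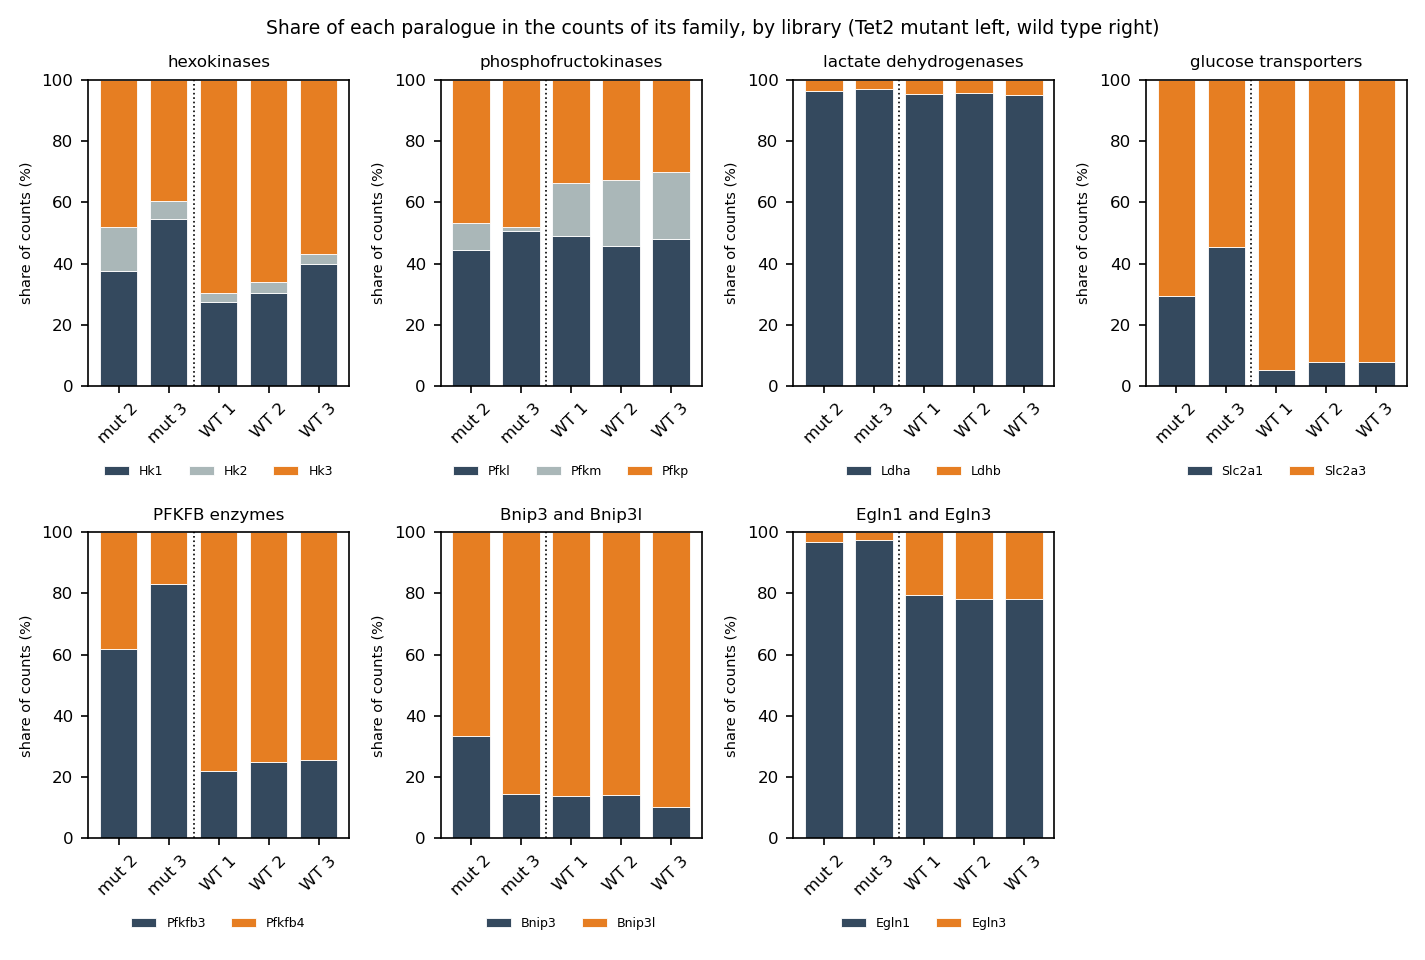
Share of each paralogue in the counts of its family, in percent, for Tet2-mutant libraries (mut, left of the dotted line) and wild-type libraries (WT, right). Pfkfb3 holds 61.7% and 82.9% of its pair in the mutant libraries and 22.1% to 25.5% in the wild type, and Slc2a1 and Pfkp also take larger shares in both mutant libraries.

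The mutant libraries differed from each other more than the wild-type libraries did. For 28 of the 32 genes the CPM was higher in Tet2-mutant replicate 2 than in replicate 3, and for 10 genes they differed more than 2-fold, against 1 gene between the highest and lowest wild-type library. The median ratio was 1.56 between the mutant libraries and 1.26 between the highest and lowest wild-type libraries. Pfkm, Vegfa and Hk2 differed most, at 8.08-fold, 6.89-fold and 5.52-fold. Aldoa, Eno1, Pfkfb3 and Bnip3l were the 4 genes with more CPM in replicate 3. With Tet2-mutant replicate 2 left out, 6 genes were called higher and 13 lower, where 26.5% and 32.2% of all tested genes were called. With replicate 3 left out, 10 were called higher and 4 lower, where 21% and 18.4% of all tested genes were called. Each of these fits takes the lone mutant library to have the wild-type spread.

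Set side by side, the enzymes and the hypoxia-induced genes both made up less of the mutant libraries. The 16 enzymes summed to 5484 and 5115 CPM in the mutant and to 7653, 7250.25 and 7161 CPM in the wild type, that is 0.548% and 0.512% against 0.716% to 0.765% of all counts. The 10 hypoxia-induced genes summed to 439 and 322 CPM in the mutant and to 627, 563 and 635 CPM in the wild type. Neither sum overlapped between genotypes. Pkm, Gpi1 and Hk3 account for most of the difference in the enzyme sum. The median log2 ratio to the wild-type mean by CPM was -0.23 and -0.69 for the enzymes in Tet2-mutant replicates 2 and 3, and -0.51 and -0.95 for the hypoxia-induced genes, against -0.96 and -0.41 for all tested genes. Relative to all genes, each group therefore stood higher in replicate 2 and lower in replicate 3.

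Marker lists of other cells differed between the genotypes in several ways. Neutrophil markers summed to 39844 and 21595 CPM in Tet2-mutant replicates 2 and 3 and to 57473 to 73446 CPM in the wild type, with 13 of 14 below every wild-type library, against 46.8% of all tested genes, and none at 0. Cell cycle genes summed to 1829 and 542 CPM in the mutant and to 3718 to 5013 CPM in the wild type, with 10 of 10 below. By edgeR 0 of the 14 neutrophil and 0 of the 10 cell cycle genes were called, with 4 and 3 lower at an unadjusted p under 0.05. DESeq2's Wald test called 4 and 0 of them lower, and limma voom 7 of each list. Over all genes, in either direction, DESeq2's Wald test called 5109 and limma voom 3202, against 2556 with edgeR. By edgeR, 3182 of the 17062 tested genes were lower at an unadjusted p under 0.05. Macrophage markers summed to 6021 and 6641 CPM in the mutant and to 644 to 793 CPM in the wild type. By CPM 9 of 10 lay above every wild-type library, against 14.1% of all tested genes, and those 9 were called higher, against 10.6%. Erythroid markers summed to 12611 and 2230.4 CPM in the mutant and to 10202 to 24277 CPM in the wild type, so mutant replicate 2 lay inside the wild-type range. Of the 11 erythroid genes 1 was called, as lower, against 4.43% of all tested genes called lower. The part of these cell types in the changes of the 32 genes was not tested.

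Conventional dendritic cell markers summed to 535 and 698 CPM in the mutant and 90.7 to 111 CPM in the wild type. T and NK cell markers summed to 911 and 1788 CPM against 383 to 430.5 CPM. Of these 10 genes 5 were called higher, against 10.6% of all tested genes, and Cd2 alone held 208 and 912 CPM in the mutant. Klrb1c was lower, at 1.20 and 1.39 CPM against 4.16 to 15.2 CPM. Nkg7 overlapped, at 171 and 269 CPM against 177 to 244 CPM, as did Il7r. The sum was not split into T and NK genes. B cell markers summed to 4685 and 16713 CPM in the mutant and 1335 to 6089 CPM in the wild type, and plasmacytoid dendritic cell markers to 282 and 1104 CPM against 161 to 275 CPM. Of the 6 plasmacytoid genes, 2 lay above and 2 below every wild-type library, against 14.1% and 46.8% of all tested genes. Ly6d made up most of the mutant sums, at 160 and 847 CPM, while Siglech was at 6.24 and 1.04 CPM, against 29.2 to 38.1 CPM in the wild type. Megakaryocyte markers summed to 107 and 125 CPM in the mutant and 149 to 181 CPM in the wild type. Pancreatic acinar transcripts summed to 488 and 1610 CPM in the mutant and 47.1 to 64.4 CPM in the wild type, with Amy2a5 at 0 in every library. The 11 tested acinar genes were all called higher, against 10.6% of all tested genes.

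In the list of tricarboxylic acid cycle genes, the cycle that burns pyruvate carbon in mitochondria, 5 of 19 tested genes rose and none fell with TMM scaling, against 10.6% of all tested genes called higher and 4.43% lower, and the median log2 fold change was 0.23. The list also holds the cytosolic forms Mdh1 and Idh1. Mdh1, the cytosolic malate dehydrogenase, stood at 425 and 1042 CPM in the mutant and at 233, 279 and 241 CPM in the wild type (2.01 ± 0.33, adjusted p = 0.0124). Sdhb, a subunit of succinate dehydrogenase, stood at 387 and 308 CPM in the mutant and at 171, 208 and 191 CPM in the wild type (1.42 ± 0.27, adjusted p = 0.0209). Suclg1 and Mdh2 also rose, by 1.25 and 0.96 on the log2 scale (adjusted p = 0.0167 and 0.0431). With library size alone 2 of the 19 were called higher and 3 lower, against 6.92% and 16.9% of all genes. Of 13 genes of pyruvate entry into mitochondria none was called with TMM scaling. At an unadjusted p under 0.05, 4 were higher and 2 lower, against 3503 and 3182 of the 17062 tested genes. With library size alone 2 (15.4%) were called lower, against 16.9% of all genes. With TMM scaling Mpc1 and Pdk2 had the smallest p (0.85 with adjusted p = 0.063, and 1.45 with adjusted p = 0.0686, on the log2 scale).

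Of 15 genes of gluconeogenesis and glycogen, 3 fell and none rose with TMM scaling, against 4.43% and 10.6% of all genes, with a median of -0.56. With library size alone 6 were called lower, against 16.9% of all genes. Gys1, the glycogen synthase, stood at 14.9 and 12.4 CPM in the mutant and at 77.0, 50.4 and 47.0 CPM in the wild type (-1.55 ± 0.38, adjusted p = 0.0414). Phkb and Phka2, subunits of phosphorylase kinase, fell, Phkb with a log2 value of -1.85 and an adjusted p of 0.0251, Phka2 with -2.17 and 0.0431. In the pentose phosphate pathway, which makes NADPH, 1 of 8 genes fell with TMM scaling, against 4.43% of all genes, and 3 with library size alone, against 16.9%. The gene called with TMM was G6pdx, the first enzyme, at 134 and 145 CPM in the mutant and 516, 347 and 414 CPM in the wild type (-1.09 ± 0.27, adjusted p = 0.0414). Among 10 other transporters of glucose and lactate, Slc37a2 rose (2.28 ± 0.33, adjusted p = 0.00867) and the lactate transporter Slc16a1 fell (-1.97 ± 0.49, adjusted p = 0.042). Slc16a1 stood at 72.6 and 29.8 CPM in the mutant and at 245, 289.9 and 367 CPM in the wild type, with the libraries far apart. These 5 falls also passed with library size alone, as did the rise of Slc37a2.

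Of 28 other genes induced by hypoxia, 4 (14.3%) rose and none fell with TMM scaling, against 10.6% and 4.43% of all genes. With library size alone 3 were called higher and 6 lower, against 6.92% and 16.9% of all genes, and Higd1a lost its call (adjusted p = 0.0578). Bhlhe40, a clock-linked repressor, stood at 116 and 86.3 CPM in the mutant and at 26.9, 26.3 and 24.0 CPM in the wild type (2.53 ± 0.30, adjusted p = 0.00422). Hmox1, which degrades heme, stood at 173 and 248 CPM in the mutant and at 100.05, 91.7 and 84.4 CPM in the wild type (1.70 ± 0.23, adjusted p = 0.00641). Both genes are also expressed by macrophages, whose marker sums are given above, and the part of those cells was not tested. Adm, the peptide hormone adrenomedullin, was at 7.85 and 179 CPM in the mutant and at 1.64, 1.20 and 1.004 CPM in the wild type (6.57 ± 1.09, adjusted p = 0.0136), so mutant replicate 3 carried most of it. Higd1a, which encodes a small mitochondrial protein, rose by 1.83 (adjusted p = 0.0415). The median of this list was 0.41. At an unadjusted p under 0.05, 9 were higher and 6 lower, against 3503 and 3182 of the 17062 tested genes.

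Of 16 genes of HIF subunits and oxygen sensing, 4 rose and none fell with TMM scaling, beside the same 10.6% and 4.43% of all genes. With library size alone 3 were called higher and 2 lower, against 6.92% and 16.9% of all genes, and Elob lost its call (adjusted p = 0.0916). Siah2, a ubiquitin ligase acting on the prolyl hydroxylases, stood at 65.6 and 97.4 CPM in the mutant and at 25.0, 31.3 and 30.9 CPM in the wild type (1.99 ± 0.28, adjusted p = 0.00709). Rbx1 and Elob, parts of the VHL ubiquitin ligase complex, rose by 1.61 and 1.27 (adjusted p = 0.0131 and 0.033), and Arnt2, a partner of HIF proteins, by 6.403 ± 1.31 (adjusted p = 0.0262) with 14.8 and 2.30 CPM in the mutant and 0.125, 0.0276 and 0.316 CPM in the wild type. The median of this list was 0.26. Of 17 other glycolysis genes 3 rose (17.6%) and none fell with TMM scaling, against 10.6% and 4.43% of all genes, with a median of -0.59. With library size alone 2 of them were called higher and 3 lower, against 6.92% and 16.9% of all genes. Eno3, the muscle enolase, stood at 37.7 and 94.5 CPM in the mutant and at 13.7, 15.6 and 14.5 CPM in the wild type (2.64 ± 0.37, adjusted p = 0.00754). Aldoc and Gapdhs rose by 2.34 and 4.68 (adjusted p = 0.0434 and 0.0384), Gapdhs with 0.344 and 4.33 CPM in the mutant and 0.0782 to 0.166 CPM in the wild type. Among 14 regulators, Rheb, an activator of mTOR, rose by 1.45 (adjusted p = 0.0177) and Max, the partner of MYC, fell by 1.70 (adjusted p = 0.0338). These 14 stand beside 10.6% of all genes called higher and 4.43% lower. With library size alone 1 was called higher and 4 lower, against 6.92% and 16.9% of all genes.

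**Figure D4:**
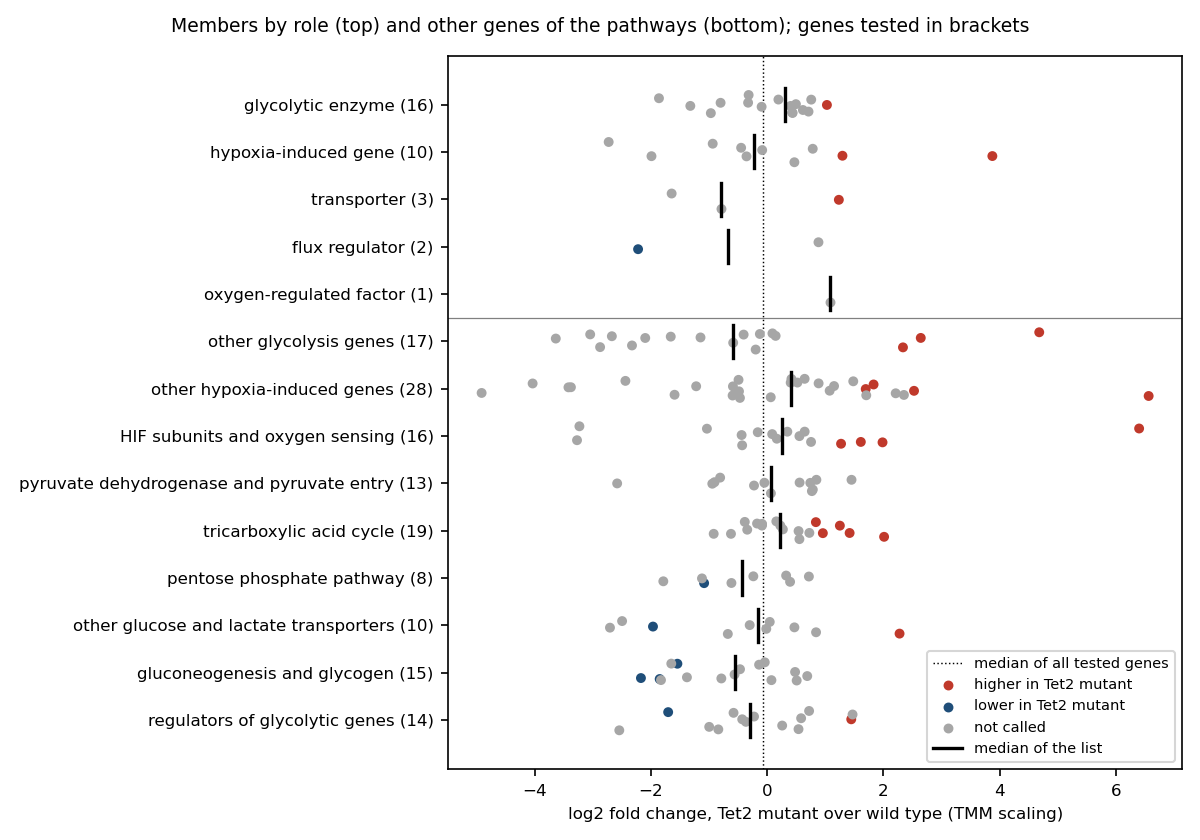
Log2 fold change of each tested gene, Tet2 mutant over wild type with TMM scaling, for the 32 genes by role (above the line) and for the other pathway lists (below it). Black bars are list medians, the dotted line is the median of all tested genes at -0.07, red marks genes called higher and blue genes called lower. Calls in the tricarboxylic acid cycle lie to the right and those of glycogen metabolism to the left.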

How the data were processed

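The authors deposited raw gene counts, 1 file per library, each with 55291 gene symbols. Per the labels' protocols, 1.3 ug of total RNA, purified on RNeasy mini plus columns, went into each SMARTer mRNA-Seq library. The tools named are Trimmomatic (a read trimmer) and STAR (an aligner), and the build is mm10, per the submitters' processing notes. Tool versions, the read counter, the annotation and the strand setting were not given in the sources used here. Counts without molecular identifiers are not independent molecules, so errors cover counting and the spread between these libraries.

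The deposited counts entered edgeR 4.0.16 under R 4.3.3 without change, with DESeq2 1.42.0 and limma 3.58.1 used for alternatives. Symbols passing filterByExpr (17062) were scaled by TMM and tested by edgeR's quasi-likelihood F-test, Tet2 mutant against wild type, with 3 residual degrees of freedom, p-values adjusted by Benjamini-Hochberg across these symbols, and a call at an adjusted p under 0.05. The SE is the absolute log2 fold change divided by the square root of F. CPM uses the full library total. The common biological coefficient of variation was 0.507. The fit was checked on simulated counts and missed most small changes. With 50 genes altered at each size, it found 1 at 2-fold, 14 at 4-fold, 33 at 8-fold and 39 at 16-fold. It made 9 false calls, with 16359 genes tested. A gene without a call is therefore not shown to be unchanged. Positions and exon lengths come from GENCODE M21 (GRCm38), which held all 32 genes, and promoters from RefSeq. Shares were compared by exact permutation in Python 3.11.15 with scipy 1.17.1.

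The 32 genes, the pathway and marker lists and the alternatives were chosen with earlier results of these data known. Named genes are all 32, and of each pathway list up to 4 called genes with the smallest p, or 2 where none was called. Genes named as overlapping the 32, with their values, were chosen after their values were seen. The genotypes share replicate numbers 2 and 3, which the fit ignores. Alternatives were other scaling, filters and tests, the replicate block, the Xist class (10 CPM or more) as a covariate, each library left out, and shares per kilobase. The replicate block had 1 residual degree of freedom, and wild-type replicate 1 had no mutant library of its number to be compared with.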

Additional observations from a re-analysis of the deposited data

How the results depend on the processing

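All 2556 calls over all genes became 4058 with library size only, 4557 with no filter, 5109 with DESeq2's Wald test, 101 with the Xist class as a covariate, and 622 (without wild-type replicate 1) to 10862 (without mutant replicate 2) with 1 library left out. Of the 32 genes, the 4 called higher became 1 with upper-quartile scaling, 1 with library size only and 0 with the Xist covariate (edgeR, with 1 higher and 5 lower at an unadjusted p under 0.05), and 1 to 10 with 1 library left out. The 1 called lower became 7 with upper-quartile scaling, 11 with library size only, 9 with no filter, 2 with a minimum of 1 CPM, 4 with DESeq2's Wald test, 8 with limma voom, 0 with the Xist covariate, and 0 to 13 with 1 library left out. With the replicate block, 1445 genes were called in all, 2 of the 32 higher and 3 lower, and Ndrg1 was at 0.0655. Deviations from the genotype means correlated at -0.03 and -0.02 between same-numbered libraries. With 2 mutant libraries these deviations mirror each other, so the correlations cannot decide whether the numbers mark a pairing. The enzyme median of 0.30 was -0.0031 with upper-quartile scaling, -0.23 with library size only, -0.0444 with limma voom and -0.32 to 0.46 with 1 library left out. The median of the hypoxia-induced genes, -0.22, was -0.56 with upper-quartile scaling, -0.78 with library size only and -0.59 to 0.16 with 1 library left out. Signs turned with library size only for Hk2 (-0.0177), Pfkl (-0.10), Gapdh (-0.10), Pgam1 (-0.0868), Eno1 (-0.12), Ldha (-0.34) and Egln1 (-0.13), with upper-quartile scaling for Ldha (-0.11), and with limma voom for Hk2 (-0.52) and Egln1 (-0.0831). With 1 library left out the log2 fold changes ran from -1.35 to 1.42 for Hk2, -0.31 to 0.0866 for Pgk1, -0.33 to 1.014 for Pgam1, -0.86 to 0.0541 for Pkm, -0.0258 to 0.38 for Ldha, -0.92 to 0.0461 for Pdk1, -0.21 to 1.36 for Bnip3, -0.59 to 1.07 for Egln1 and -0.58 to 0.28 for Ndrg1. The difference in the share of Pfkl, -0.064 percentage points, was 13.1 per kilobase and -3.21 to 3.08 with 1 library left out. The cause was not tested. Of 448 values of single genes, 335 kept their sign and side of the threshold, 63 newly passed, 26 no longer passed and 24 changed sign. The lowest counts of the set were 34 and 40, for Egln3 in the mutant libraries.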
